A study of Rattus norvegicus with 35 samples.

Results

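The retinas compared here were taken 15 d after the left optic nerve of adult female Sprague-Dawley rats was cut inside the orbit (intraorbital nerve transection, IONT), and from naive rats, which were not treated. Each Affymetrix RAE230.2 array carried RNA pooled from 4 retinas, so 1 array is 1 replicate, and a pool hides how animals differ. IONT 15 d had 2 arrays, replicates 1 and 2, and they were set against naive replicates 4 and 5, 4 of the 35 arrays in all. These naive arrays were chosen because they belong to the same array set as the 15 d arrays. An array set is defined by the log2 difference between the control probe sets for the 3′ and the 5′ end of β-actin, a measure of how far the labelled RNA reached along the transcript. It was 2.90 and 3.27 in the IONT 15 d arrays and 3.19 and 2.98 in naive replicates 4 and 5, against 1.75 to 1.90 in naive replicates 1 to 3. Array set 2, with 8 arrays, also holds IONT at 24 h and 3 d (2 arrays each), and array set 1 the other 27 arrays. Of 31042 probe sets tested, 20826 carried 1 gene symbol and stood for 14217 genes.

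Retinal ganglion cells are the output neurons of the retina, and their axons form the optic nerve. Cutting that nerve severs all of these axons near the eye, after which the cell bodies in the retina are lost over days to weeks, while photoreceptors and most interneurons, whose axons stay within the retina, are not cut. Müller glia and microglia react to such an injury, and microglia can take up debris and present antigen through class II molecules. RNA of a whole retina mixes all these cells, so fewer cells of a type and less RNA per cell cannot be told apart.

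At 15 d genes of ganglion cells and their axons were far below naive, and 3 of them led the calls. Slc17a6, the vesicular glutamate transporter VGLUT2 that ganglion cells use to load transmitter, had log2 signals of 3.49 and 3.37 after IONT, against 9.90 and 9.72 in naive retinas. That is a change of -6.38 ± 0.12 (SE), or 83.4-fold, with limma's adjusted p = 0.000632. Nefh, the heavy neurofilament subunit, had 5.97 and 6.13 after IONT and 10.51 and 10.47 in naive, a change of -4.44 ± 0.08 (limma adjusted p = 0.000632). Both arrays after IONT lay far below all 5 naive arrays for each of these genes. Nefm, the medium neurofilament subunit, had 6.04 and 6.28 against 10.26 and 10.02 in naive (-3.98 ± 0.13, limma adjusted p = 0.00395), and Rab6b, a small GTPase of vesicle transport found mainly in neurons, had 5.57 and 5.63 against 6.85 and 6.86 (-1.25 ± 0.04, limma adjusted p = 0.00395). The only gene called higher beside these 4, Aard, lay at a low signal, 4.67 and 4.64 after IONT and 2.92 and 2.97 in naive (1.71 ± 0.06, limma adjusted p = 0.00395). Its level kept it outside the rule for named genes, and it was singled out after its values were seen. Folds on this scale are approximate where a group lies near the lowest signals of the arrays, as Slc17a6 did after IONT.

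These 5 were all the probe sets called, 1 higher and 4 lower (0.0161% of those tested), when the spread was estimated within the 8 arrays of array set 2. A call needed at least 1.2-fold, log odds of change (B) above 0 and a Benjamini-Hochberg adjusted p below 0.01. With an adjusted p below 0.05 the same limma model gave 36 higher and 29 lower (0.209%), and 6084 passed an unadjusted p of 0.05. With any 1 of the 4 arrays left out limma called 0 probe sets, with 3441 to 4957 at an unadjusted p below 0.05. Without 1 array, the adjusted p of Slc17a6 lay between 0.0175 and 0.0287 and that of Nefm between 0.0273 and 0.07. Taking the spread from 34 arrays, with the same 4 arrays in the contrast, gave 973 higher (3.13%) and 289 lower (0.931%), together 1262 (4.07%). The 34-array counts describe gene groups in what follows, and "called" without further words refers to them. They assume that the arrays of array set 2 scatter like the others. Of the 973 higher calls 285, and of the 289 lower calls 73, were called again in all 4 fits that each left out 1 array.

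**Figure D1:**
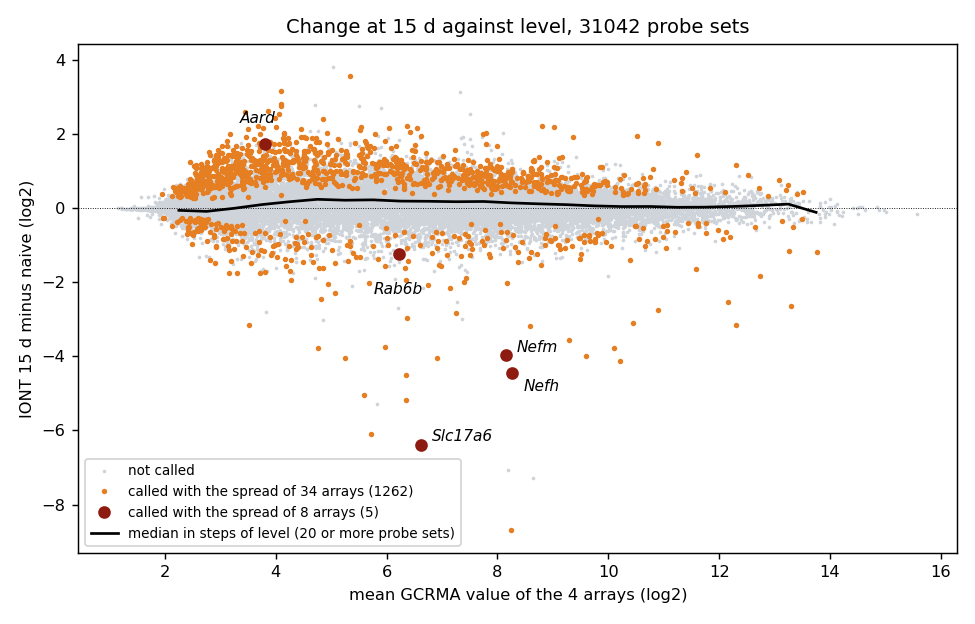
Change between IONT 15 d and naive replicates 4 and 5 (log2) against the mean signal of the 4 arrays (log2) for all tested probe sets. The black line is the median in steps of signal. The 4 lower and 1 higher probe sets called with the spread of 8 arrays are marked apart from those called with the spread of 34 arrays, of which 973 are higher and 289 lower.

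The balance of higher and lower calls moved with the scaling. The median change was 0.21 in probe sets with a signal between 4 and 6, 0.17 between 6 and 8 and 0.10 between 8 and 10, against -0.06 below 3. Cyclic loess between arrays, which removes such a trend, gave 801 higher and 388 lower. Of its calls 989 were among the 1262 of the deposited scale. Centring each array on its median, which moved the median change to -0.25, gave 397 higher and 6297 lower. With both 15 d arrays beyond all 5 naive arrays and a signal of at least 6, 3277 of 13090 probe sets were higher (25%) and 1500 lower (11.5%).

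Among the genes that mark ganglion cells, 26 of 30 listed were measured, 9 were called lower and 0 higher (0.943% of all genes were called lower and 3.57% higher). The median change of the list was -0.77, against 0.01 over all genes. Nrn1, neuritin, a membrane-anchored protein that promotes neurite growth, had 2.25 and 3.09 after IONT and 8.84 and 8.67 in naive (-6.09 ± 0.38). Rbpms, an RNA-binding protein widely used to count ganglion cells, had 4.62 and 3.59 against 8.53 and 8.68 (-4.50 ± 0.54). Its 3 probe sets gave changes from -4.50 to -0.08, and 2 of them were called. Sncg, γ-synuclein, had 7.74 and 7.28 against 11.02 and 11.14 (-3.57 ± 0.26). For each of these 3 genes the groups were separated by more than 3 log2 units, a distance several times the gap between replicates. Prph, the intermediate filament peripherin (-5.04), Rbpms2 (-4.06), Nell2, a secreted neuronal glycoprotein (-2.08), Thy1, a surface glycoprotein of ganglion cells (-1.88), and Eomes, a transcription factor of ganglion cell subsets (-1.41), were also called lower. The other probe set of Rbpms2 showed -0.04 and was not called. Without naive replicate 4, Nell2 was no longer called, nor was Eomes, which was also lost without IONT 15 d replicate 1. The other 6 calls, with that of Slc17a6, were made in all 4 fits that left out 1 array, and all 9 were made after loess.

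The list did not move as 1 block. Both 15 d arrays lay below all 5 naive arrays for 20 of the 26 genes (29% of all 14217 genes at any signal), but several of these stood near the lowest signals in every array, such as Pou4f1, the ganglion cell transcription factor Brn3a, with a mean of 3.00 in naive. Stmn2, a tubulin-binding protein of growing axons, had a change of -0.77 and Robo2, an axon guidance receptor, one of -0.84. Neither was called on the probe set that stood for it, but the other probe set of Stmn2 (-1.09) was called lower. Gap43, a growth cone protein, had a change of -0.27, and Isl1, a transcription factor that ganglion cells share with bipolar and amacrine cells, one of 0.34.

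Opn4, melanopsin, the light-sensing pigment of the intrinsically photosensitive ganglion cells, stood on the other side. It had 9.11 and 9.10 after IONT, against 7.15 and 7.01 in naive replicates 4 and 5 and 6.18, 6.32 and 6.15 in naive replicates 1 to 3. The change of 2.03 was not called, with limma's adjusted p = 0.0722 on 8 arrays and 0.015 on 34, though both 15 d arrays were above all 5 naive arrays. It was singled out after its values were seen.

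**Figure D2:**
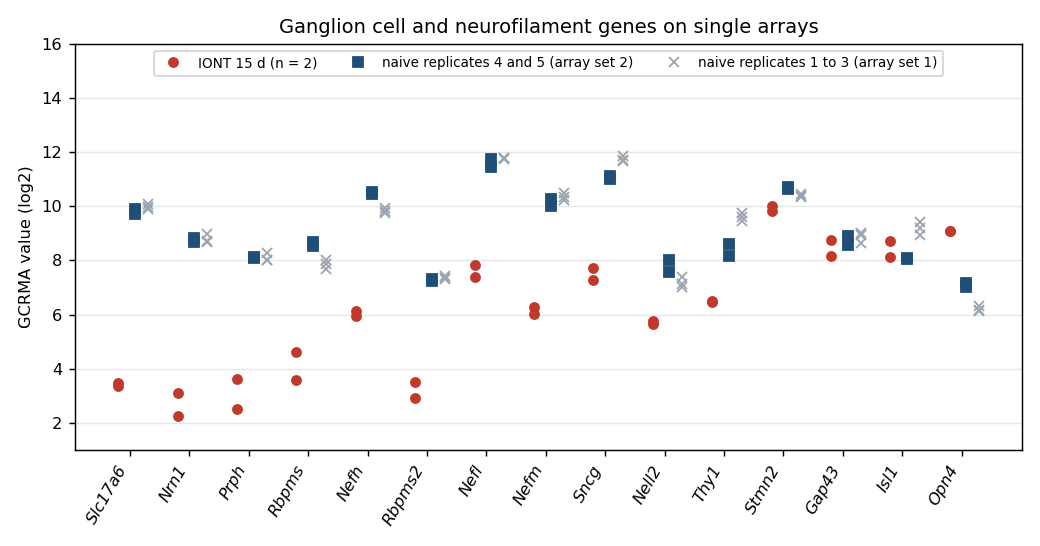
Log2 signal of genes that mark ganglion cells and of neurofilament genes in each IONT 15 d array and each naive array, with array set 2 and array set 1 marked. Both IONT 15 d arrays sit below all 5 naive arrays for Slc17a6 (3.49 and 3.37 against 9.72 or more), and above all 5 for Opn4 (9.11 and 9.10).

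Neurofilaments give calibre to long axons, and motor proteins carry cargo along them. Of 27 axon cytoskeleton genes measured, 8 were called lower and 0 higher (0.943% and 3.57% of all genes), and the median change was -0.35. Nefl, the light neurofilament subunit, had 7.85 and 7.38 after IONT and 11.75 and 11.44 in naive (-3.98 ± 0.20), and its other probe set showed -3.19. Map1a, a microtubule-associated protein of mature axons and dendrites, had a change of -1.62, Ina, the neurofilament protein α-internexin, one of -1.23, and Kif5a, a kinesin heavy chain of neurons, one of -1.01. The calls of Map1a and Ina were lost without naive replicate 4 and without IONT 15 d replicate 2, and that of Ina also without either of the other 2 arrays. Nefl and Kif5a kept their calls in all 4 fits that left out 1 array. The 3 probe sets of Kif5a gave changes from -1.53 to -0.37, and 1 of them was called.

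Markers of the neurons that are not cut had smaller median changes than the ganglion cell list (-0.77). None of 20 rod genes, 13 cone genes and 8 bipolar cell genes was called, with median changes of -0.13, 0.04 and 0.37. At the share of all genes, 3.57% called higher and 0.943% lower, lists of this size would hold few calls. Single cone genes ranged from -1.13 to 1.05. Both 15 d arrays lay below all 5 naive arrays for 7 of the 20 rod genes (29% of all genes). Of 16 amacrine cell genes 1 was called, Calb2, the calcium-binding protein calretinin, which ganglion cells also make. It had 10.51 and 10.33 after IONT against 11.04 and 11.47 in naive (-0.84 ± 0.18), and the call was lost without naive replicate 5 or either 15 d array. Of 22 synaptic vesicle genes Cplx1, complexin 1 (-1.04), and Snap25, a SNARE of the presynaptic membrane (-0.52), were called lower, and both calls were lost whichever of the 4 arrays was left out. None of 20 genes of voltage-gated channels was called.

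Complement, the protein cascade that tags cells and synapses for removal, had 4 genes called higher of 20 measured and 0 lower. Of all genes, 3.57% were called higher and 0.943% lower. The median change of the list was -0.04, however, and 11 members had a mean signal under 3 in both groups. C1qb, a chain of the first component, had 5.88 and 5.04 after IONT and 2.79 and 2.65 in naive (2.74 ± 0.40). In naive replicates 1 to 3 it had 5.06, 4.96 and 4.86, so the 15 d arrays did not lie above all 5 naive arrays. C3, the central component, had 9.06 and 8.55 against 6.69 and 6.87 (2.02 ± 0.30), and lay above all 5. C1qa (2.20) and Clu, clusterin, a secreted chaperone and complement inhibitor (0.76), were called as well, but both were lost without naive replicate 4 or without IONT 15 d replicate 1. The other probe set of Clu showed -0.006.

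Microglia and macrophage genes, 27 measured, had a median change of 0.42 with 1 call, a share near the 3.57% of all genes called higher, and 14 of them had both 15 d arrays above all 5 naive arrays (20.2% of all genes). That call was Ctss, cathepsin S, a lysosomal protease that trims the class II invariant chain. It had 9.48 and 9.14 after IONT and 8.06 and 7.97 in naive (1.30 ± 0.26), and was lost without either naive array or without IONT 15 d replicate 1. Members that were not called included Cd53 (1.54), Fcer1g, a signalling chain of Fc receptors (1.49), and Aif1, the microglial protein Iba1 (1.17). The other probe set of Aif1 showed -0.05. These are among the largest changes of the list, which ran from -0.47 to 1.54, with 18 of 27 above 0. Other markers of these cells changed little, such as Itgam (-0.02), Cx3cr1 (0.16) and Cd68 (0.16). The defining markers Tmem119 and Trem2 stood near the lowest signal in both groups.

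Class II molecules present peptides to helper T cells, and their α and β chains are made together with the invariant chain Cd74. The list of 10 measured genes also holds Ctss and Ifi30, which are not class II molecules. Ctss was the only 1 called on the probe set that stood for its gene (3.57% of all genes were called higher). It is the same call as in the microglial list. Ciita, the class II transactivator, was not called on that probe set (0.30), but its dimmer probe set (0.60) was called higher. The median change of the list was 0.92, and 6 members had both 15 d arrays above all 5 naive arrays (20.2% of all genes). RT1-Ba, a class II α chain, had 6.82 and 7.04 after IONT, against 2.77 and 3.50 in naive (3.80 ± 1.02, limma adjusted p = 0.0177 on 34 arrays). The 4 probe sets of RT1-Ba gave changes from -0.04 to 3.80, and none was called. RT1-Da, also an α chain, had 8.98 and 8.78 against 5.69 and 5.80 (3.14, limma adjusted p = 0.0398 on 8 arrays and 0.0311 on 34). Cd74 had 8.96 and 8.57 against 6.34 and 6.12 (2.54), and the β chain RT1-Db1 5.34 and 6.25 against 3.72 and 3.72 (2.08). The other probe set of RT1-Db1 showed -0.35. On the probe sets that stood for these 4 genes the groups did not overlap, yet none passed the adjusted threshold. Of all 14217 genes, 4441 had both 15 d arrays above naive replicates 4 and 5. RT1-Bb, the β chain partner of RT1-Ba, had 2.70 and 2.60 after IONT and 3.61 and 3.69 in naive, the opposite order at a low signal. Class II promoters are known to carry a Y box, an inverted CCAAT motif, close to the start. The 100 bases before the start of these chain genes are shown, from RefSeq in the GRCr8 build, 5′ to 3′ on the gene's strand, for 4 α and β chain genes, among them the 2 largest changes of the list. Capitals mark GATTGG, the inverted CCAAT with its flanking base, searched on both strands, which stood in 6 of 8 class II windows and in 6.72% of 33469 windows of this length. It is a match of letters only. RT1-Bb carries it too, and the window of Cd74, the third largest change, does not.
RT1-Ba, chr20:4576957-4577056, plus strand: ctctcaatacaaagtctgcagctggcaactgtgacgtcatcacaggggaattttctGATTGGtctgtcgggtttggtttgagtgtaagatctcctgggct
RT1-Da, chr20:4515315-4515414, plus strand: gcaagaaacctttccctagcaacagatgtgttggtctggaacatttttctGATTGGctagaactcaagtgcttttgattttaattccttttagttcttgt
RT1-Db1, chr20:4560163-4560262, minus strand: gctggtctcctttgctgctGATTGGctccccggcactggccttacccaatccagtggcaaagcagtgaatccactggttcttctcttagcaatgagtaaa
RT1-Bb, chr20:4604119-4604218, minus strand: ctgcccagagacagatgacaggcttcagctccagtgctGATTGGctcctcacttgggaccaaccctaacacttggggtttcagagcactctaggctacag

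Glial genes were mixed. Of 28 reactive gliosis genes 3 were called higher (3.57% of all genes), with a median change of 0.27. So small a count is not read as a result about the group. Edn2, endothelin 2, a peptide made by stressed photoreceptors, had 8.18 and 7.06 after IONT and 5.38 and 5.57 in naive (2.15 ± 0.37), and the call was lost without IONT 15 d replicate 1. A2m, a protease inhibitor of plasma and glia, had 13.12 and 12.63 against 11.79 and 11.67 (1.15 ± 0.26), and was called in 1 of the 4 fits that left out an array. Gfap, the intermediate filament of reactive Müller glia and astrocytes, had 10.57 and 9.29 after IONT and 9.24 and 9.32 in naive. IONT 15 d replicate 2 thus lay between the naive arrays, and the change of 0.65 was not called. Of 20 genes of Müller glia homeostasis, Apoe, the lipid carrier apolipoprotein E, had 12.44 and 12.19 after IONT and 10.69 and 11.09 in naive replicates 4 and 5 (1.42 ± 0.17) and was called higher, but naive replicates 1 to 3 stood at 12.53 to 12.61, above both 15 d arrays. The other probe set of Apoe showed -0.47. Glul, glutamine synthetase, had a change of 0.06.

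Calls also fell on genes of the injury response. Jun, the AP-1 subunit that neurons induce after axotomy, had 10.96 and 12.02 after IONT and 9.36 and 9.73 in naive (1.95 ± 0.27), and its 3 probe sets gave 1.95 to 2.21. Naive replicates 1 to 3 had 11.48 to 11.73 on the same probe set, so the 15 d arrays did not lie above all 5 naive arrays. Bbc3, the pro-apoptotic BH3-only protein Puma, had 6.62 and 7.38 against 5.37 and 5.28 (1.67 ± 0.25), above all 5 naive arrays. S100a3, a calcium-binding protein, had 7.44 and 6.81 against 3.46 and 3.65 (3.57 ± 0.47), the largest called increase on a listed gene, and lay above all 5. These 3 genes kept their calls in all 4 fits that left out 1 array. Among 28 genes of axon injury and regeneration 2 were called higher (3.57% of all genes), and the median change was 0.15. That count, too, is not read as a result about the group. Of the 10 genes measured that the study followed by qRT-PCR or at the protein level, Eef2k, elongation factor 2 kinase, and Clu were called higher. That list was chosen on these samples and is no independent evidence of its direction. Eef2k had 5.84 and 5.76 after IONT and 4.53 and 4.21 in naive (1.43 ± 0.30), and 3 of its 4 probe sets were called, with changes from -0.09 to 1.43 over the 4. The call of the probe set that stood for it was lost whichever array was left out.

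Outside the lists some called genes lay beyond all 5 naive arrays by a wide margin, and they were taken from the 34-array calls after values were seen. Txnrd2, mitochondrial thioredoxin reductase, had 5.81 and 6.29 after IONT and 3.54 and 3.79 in naive (2.39 ± 0.31). Pcdh15, a protocadherin of hair cells and photoreceptors, had 9.0 and 8.65 against 7.06 and 7.26 (1.66 ± 0.20). Tmem163, a zinc transporter of synaptic vesicles, had 3.92 and 4.27 against 7.91 and 7.77 (-3.75 ± 0.33), and its other probe set showed -0.08. In each of them the replicates of a group stayed within 0.5 log2 units of each other, and each was called in all 4 fits that left out 1 array.

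**Figure D3:**
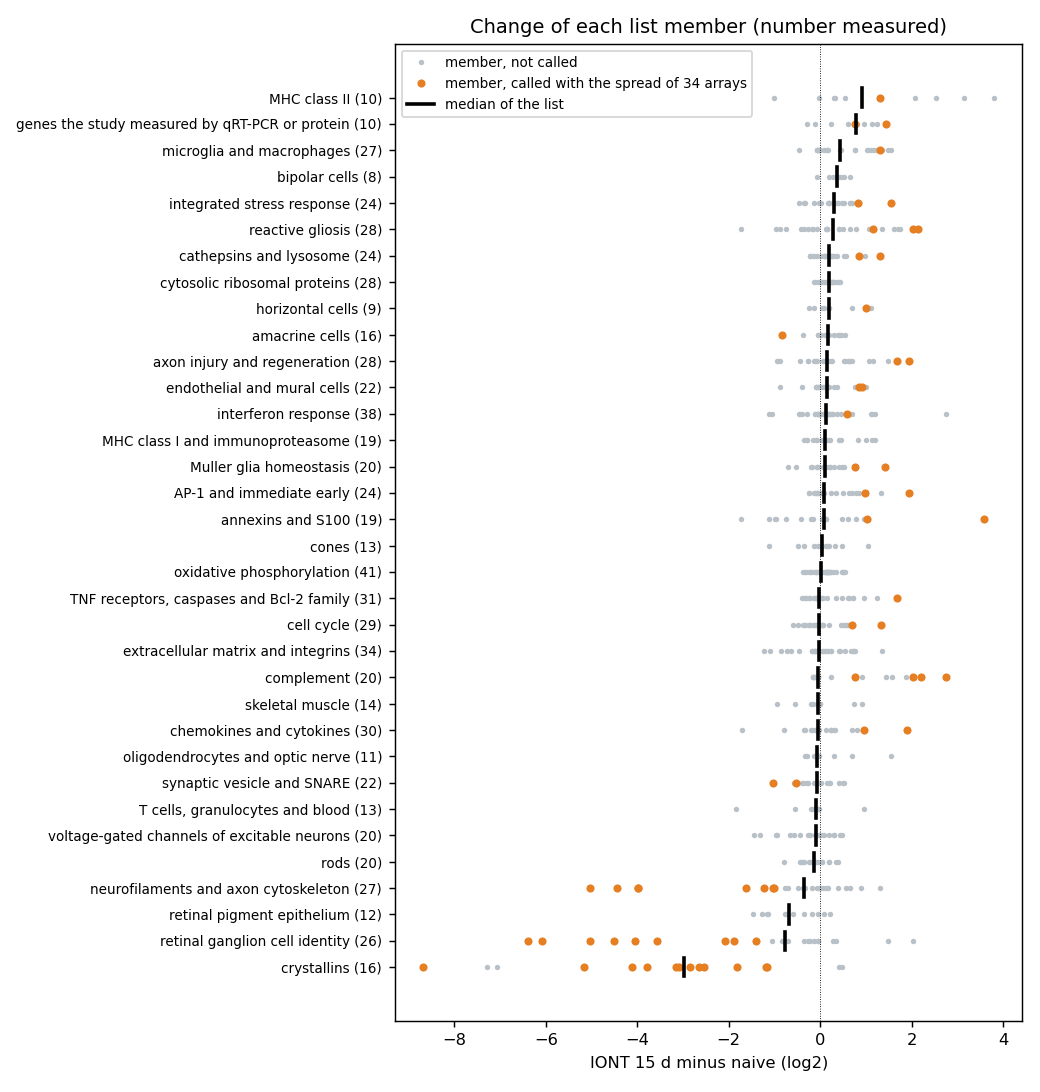
Change between IONT 15 d and naive replicates 4 and 5 (log2) for every measured member of each gene list, with the list median as a bar and members called with the spread of 34 arrays in orange. The crystallins and the ganglion cell list lie furthest to the left, with medians of -2.97 and -0.77.

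The largest decreases of all lay on the crystallins, the structural proteins of the lens, some of which retinal neurons and glia also make. Of 16 measured, 12 were called lower and 0 higher (0.943% and 3.57% of all genes), and the median change was -2.97. With 1 array left out, 5 were called lower without naive replicate 5, 7 without IONT 15 d replicate 1 and 11 without either of the others. Crygd, γD-crystallin, had 2.33 and 5.48 after IONT and 12.01 and 13.14 in naive replicates 4 and 5 (-8.68 ± 1.59, limma adjusted p = 0.000955 on 34 arrays). In naive replicates 1 to 3 it had 9.05, 9.87 and 5.93, and without naive replicate 5 or without IONT 15 d replicate 1 it was not called. The naive arrays thus differed among themselves by more than 7 log2 units, and on 8 arrays limma's adjusted p was 0.142. Cryaa, αA-crystallin, a small heat shock protein, had a smaller and tighter change, 13.31 and 13.06 against 14.20 and 14.53 (-1.18 ± 0.15), as did Cryab (-1.17). Crym and Cryl1, which share the name but not the protein family, had changes of 0.40 and 0.47.

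Of 6 genes of lens fibres, chosen after values were seen, 3 were called lower. Lim2, a fibre membrane protein, had 4.93 and 4.84 after IONT and 8.69 and 9.19 in naive, and Lim2 (-4.05), Gja3 (-2.97) and Grifin (-2.75) were called lower, while Bfsp1 (-5.29), Mip (-3.03) and Bfsp2 (-2.71) were not. The calls of Lim2 and Grifin were lost whichever of the 4 arrays was left out, and that of Gja3 in all fits but the one without IONT 15 d replicate 2. The median signal of the crystallin list was 8.42 and 8.88 in the IONT 15 d arrays, 10.08 and 11.19 at 3 d, 8.79 and 11.73 at 24 h, and 12.01 and 12.72 in naive replicates 4 and 5, against 11.54 to 13.55 over the 27 arrays of array set 1. The lowest signals thus lay in injured arrays of array set 2, whereas IONT 24 h replicate 2 was within the range of array set 1. Genes of the retinal pigment epithelium, which adheres to the retina, had a median change of -0.68 with 0 called of 12, and Rpe65, its visual cycle isomerase, had a change of -1.17. The part of lens or epithelium carried along with the retina in these results was not tested.

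The γ-crystallin promoters are printed because Cryga, Crygb, Crygc and Crygd had the 4 largest changes of the list, -5.17 to -8.68. They show the 100 bases before the start, from RefSeq in GRCr8, 5′ to 3′. Capitals mark CCCTTTTGTG, the longest run of letters that all 4 genes share in this window, and the TATA sequence TATATA, both searched on both strands. Since the run was taken from these 4 windows, its presence in all 4 is no finding. CCCTTTTGTG stood in 0.0598% and TATATA in 2.35% of 33469 windows. TATATA was found in 6 of 14 crystallin windows, and not in those of Crybb1, Crybb3 and Cryba1, which were called lower. Of the 4 genes Cryga and Crygd were called lower, and Crygb (-7.29) and Crygc (-7.06) were not. The other probe set of Cryga showed 0.08.
Cryga, chr9:73978383-73978482, minus strand: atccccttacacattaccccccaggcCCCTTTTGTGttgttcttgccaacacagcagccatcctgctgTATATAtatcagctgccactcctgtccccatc
Crygb, chr9:73957265-73957364, minus strand: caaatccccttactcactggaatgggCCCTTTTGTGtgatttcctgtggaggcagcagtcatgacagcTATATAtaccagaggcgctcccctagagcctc
Crygc, the second of 2 annotated starts, chr9:73947368-73947467, minus strand: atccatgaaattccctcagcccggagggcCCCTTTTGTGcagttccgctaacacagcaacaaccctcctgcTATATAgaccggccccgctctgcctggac
Crygd, chr9:73937410-73937509, minus strand: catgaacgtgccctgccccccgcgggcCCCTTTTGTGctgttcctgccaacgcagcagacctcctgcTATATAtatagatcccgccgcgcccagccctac

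Within array set 2 the fall of the ganglion cell genes can be followed in time. Slc17a6 had a change from naive of -1.14 at 3 d and -6.38 at 15 d, and the difference of 15 d from 3 d, -5.24, was the only call between these times on 8 arrays (0.00322%, limma adjusted p = 0.0034). There were 0 calls with the replicate number as a block, 0 without IONT 3 d replicate 1 or either 15 d array, and 10 without IONT 3 d replicate 2. With the spread of 34 arrays there were 755 calls (2.43%), 551 higher and 204 lower. Nrn1 had a change of -4.29 at 3 d and -6.09 at 15 d. Gap43 and Gal, the neuropeptide galanin, had changes of 1.1 and 2.32 at 3 d and of -0.27 and 1.47 at 15 d. C1qa and C1qb, by contrast with Slc17a6, had their larger changes at 3 d (3.20 and 4.18) and smaller ones at 15 d (2.20 and 2.74). The microglial list had a median of 1.19 at 3 d and 0.42 at 15 d.

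**Figure D4:**
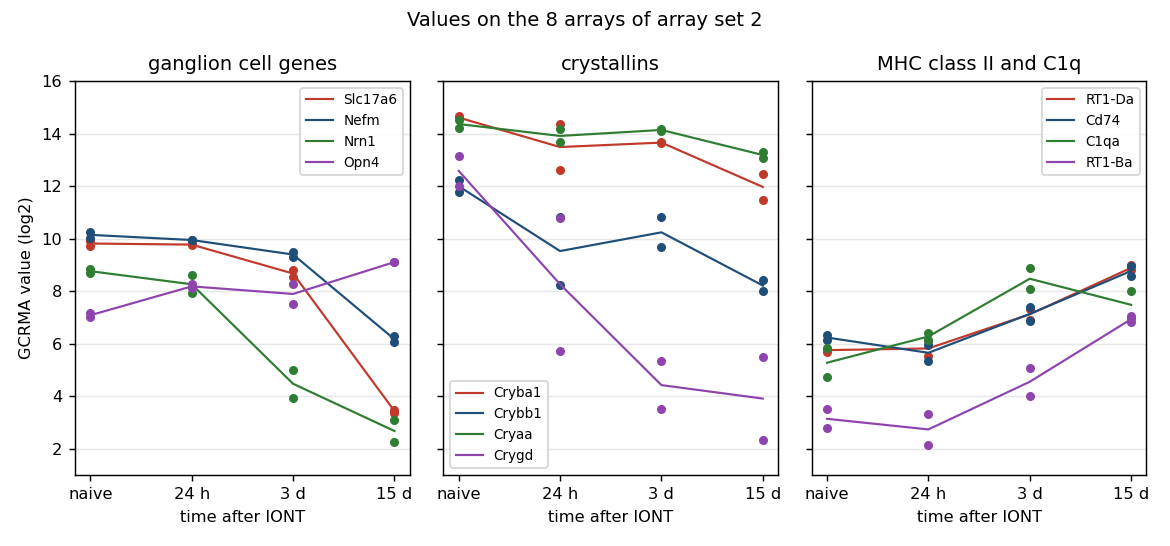
Log2 signal in the 8 arrays of array set 2, naive, IONT 24 h, IONT 3 d and IONT 15 d, for genes described in the text. Points are arrays and lines join group means. Slc17a6 is lowest at 15 d, with 3.49 and 3.37, while C1qa is highest at 3 d.

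Set against 7 d, measured on other arrays with their own naive pools, ganglion cell genes were lower at both times. Several stress and glial genes had larger changes at 7 d than at 15 d. With 2 arrays a group at 15 d, a missing call there does not show that a gene was unchanged. IONT 7 d minus naive replicates 1 to 3 gave 601 higher and 861 lower calls (4.71%), and 16 of the 26 ganglion cell genes were lower then, with a median of -1.14. Of the 289 probe sets lower at 15 d, 49 were also called lower at 7 d (17%, against 2.77% of all probe sets), and of the 973 higher at 15 d, 25 were called higher at 7 d (2.57%, against 1.94%) and 41 lower. The difference between the 2 changes, tested itself, was called for 2083 probe sets (6.71%), 964 with the 15 d change above the 7 d change and 1119 below. It compares changes across array sets, and genes such as Gfap, at 9.24 and 9.32 in naive replicates 4 and 5 but 6.95 to 7.16 in replicates 1 to 3, had different naive levels in them.

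Slc17a6 was lower still at 15 d than at 7 d, by -2.26 ± 0.30 between the changes (limma adjusted p = 0.00069), and so was Nefm (-1.70, limma adjusted p = 0.000715), whereas the change of Nefh, -4.44 at 15 d and -4.80 at 7 d, did not differ detectably (0.36 ± 0.41, limma adjusted p = 0.52). Opn4 had a change of 2.03 at 15 d and one of -1.60 at 7 d, and the difference of 3.63 ± 0.29 was called (limma adjusted p = 2.46e-05). Within array set 2, however, Opn4 was already above naive (7.2 and 7.0) at 24 h (8.3 and 8.1) and at 3 d (7.5 and 8.3). Its naive level also differed between the array sets, so a reversal between 7 d and 15 d cannot be told from a difference between the sets. The integrated stress response is the programme in which Atf4 induces amino acid transport and synthesis. Of its 24 genes, 13 were called lower at 7 d and 0 at 15 d, where 2 were called higher. For 12 the 15 d change was called above the 7 d change. Mthfd2, a mitochondrial folate enzyme, had 9.05 and 9.14 after 15 d and 8.91 and 8.68 in naive, a change of 0.30, against -6.35 at 7 d (limma adjusted p = 1.76e-06 for the difference). Slc7a1, a cationic amino acid transporter, Chac1, a glutathione-degrading enzyme, and Trib3, a pseudokinase, had changes of 0.34, 0.52 and 0.80 at 15 d and -4.72, -4.09 and -3.35 at 7 d. Gfap (0.65 at 15 d, 4.05 at 7 d) and Egr1, an immediate early transcription factor (1.01 and 4.09), ran the other way, with lower changes at 15 d. Jun had 1.95 at 15 d and -2.13 at 7 d.

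**Figure D5:**
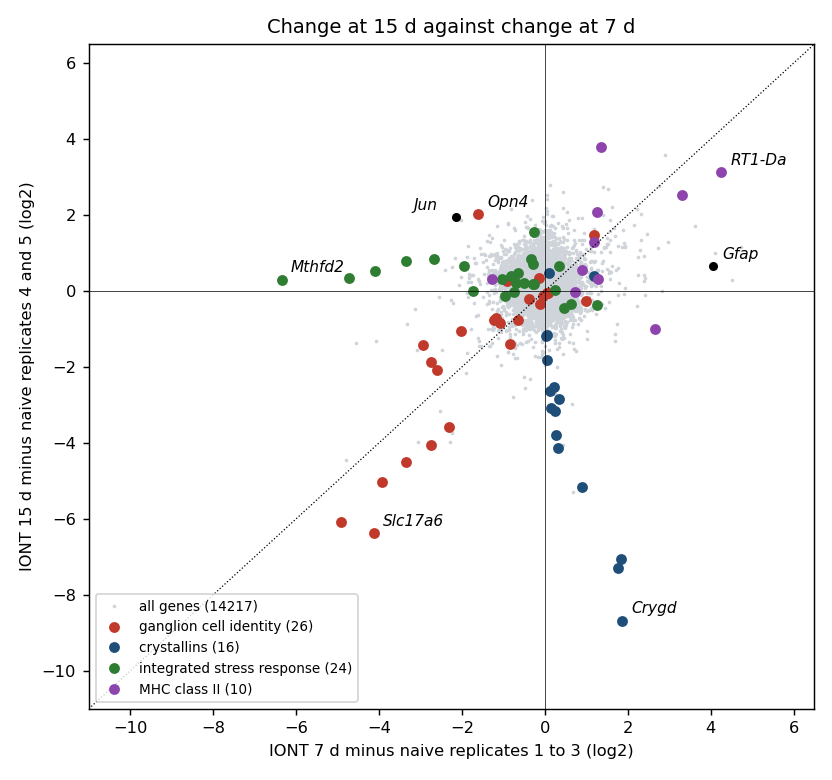
Change at 15 d (vertical axis, log2, array set 2) against change at 7 d (horizontal axis, log2, array set 1) for 14217 genes, with 4 gene lists coloured and the line of equal change dotted. The axes share no array. Ganglion cell genes lie low on both, many stress response genes low on the 7 d axis alone and crystallins low on the 15 d axis alone.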

How the data were processed

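Affymetrix RAE230.2 arrays of whole rat retina were used as the authors deposited them, as log2 values from GCRMA, which corrects background, normalizes by quantiles and joins the probes of each set. The sources used here give no tool version. Of 31099 probe sets, the 57 controls were not tested. Gene symbols came from the platform annotation of 2016; 436 probe sets had several symbols and 9780 none, and none of these was named. By gene number 20758 matched RefSeq. Where a gene had several probe sets, the brightest on average over the 35 arrays stood for it. Array sets were split at a β-actin 3′ minus 5′ difference of 2.4, a value seen in the data and not a batch that the labels state.

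The contrast of IONT 15 d minus naive replicates 4 and 5 was fitted with limma 3.58.1 in R 4.3.3, with 1 coefficient per group on 8 arrays, empirical Bayes moderation and Benjamini-Hochberg adjustment over all tested probe sets. The thresholds are those of the study's methods. The 34-array fit left out IONC (nerve crush) 12 h replicate 2, which correlated least with the other arrays, and kept the naive arrays of each set as a group. The SE in the text are from the 8-array fit for Slc17a6, Nefh, Nefm, Rab6b and Aard, from the 20-array fit for differences from 7 d, and otherwise from the 34-array fit. The 7 d contrast used 12 arrays of array set 1, and the difference between the changes 20 arrays. The procedure was tested on simulated data.

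Each replicate pools retinas, the p-values thus reflect how pools scatter, and the number of arrays limits the precision; with 2 arrays against 2 an exact permutation test cannot go below p = 0.333. Genes were named by rule: called genes with a signal of at least 6 and both 15 d arrays beyond all 5 naive arrays in 1 direction, up to 4 members of each of 34 lists with the largest change, the genes measured by qRT-PCR or protein, and the 5 largest differences each way from 3 d and 7 d. The members and lists were chosen with earlier results of these data known. Genes named from the 34-array calls were added after values were seen. Alternatives were other thresholds, a filter on low values, other sets of arrays, the array set as a term, variance trend with robust moderation, median centring, cyclic loess, the replicate block and leaving out each array.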

Additional observations from a re-analysis of the deposited data

Results flagged for a closer look

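For 32 of the genes named here, the change at 15 d differed from that at 7 d by limma's test of the difference itself. The test was taken between array sets, and the 15 d change was above the 7 d change for 21 and below it for 11. Some of these genes were named because this test called them, and others for a large change at 15 d. The count and its split are therefore no finding, and 6.71% of all probe sets were called. Among ganglion cell and axon genes the direction was mixed. Slc17a6 differed by -2.26 and Nefm by -1.70, but Opn4 by 3.63. The synaptic genes Tmem163 and Snap25 differed by -1.52 and -0.52. Of the crystallins, Crygd differed by -10.54, with naive arrays that differed widely among themselves, Cryaa by -1.21 and Cryab by -1.21. Gfap of reactive glia differed by -3.40, Egr1 by -3.08, Ecel1, a peptidase induced in injured neurons, by -3.57, and Sema3c, a guidance cue, by -3.03. The stress response genes among the 32, and Bbc3 of cell death, had a higher change at 15 d. Of the 31 genes of TNF receptors, caspases and the Bcl-2 family, 1 was called with a higher and 1 with a lower change at 15 d. Mthfd2 differed by 6.65, Slc7a1 by 5.06, Chac1 by 4.61, Trib3 by 4.15, Cebpb by 1.80, Shmt2 by 1.17 and Bbc3 by 2.12. Of the AP-1 and immediate early genes Jun differed by 4.08 and Ier2 by 1.19. Of the others, Cnbd2 differed by 2.96, Txnrd2 by 2.70, Ccdc191 by 2.64, Npepl1 by 2.41, Rnf20 by 2.27, Ccl9 by 2.25, Tbata by 1.75, Aard by 1.58, Apoe by 1.25, Pcdh15 by 1.23 and Kcnj8 by 0.78. The naive level of Gfap and Jun differed by about 2 log2 units between the array sets. That of Opn4 differed as well, at 7.15 and 7.01 in naive replicates 4 and 5 and 6.18, 6.32 and 6.15 in replicates 1 to 3.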

How the results depend on the processing

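The count of 5 calls at 15 d was the same without the threshold on B and at 1.5-fold and 2-fold. The count was 65 at an adjusted p below 0.05, 18 after a filter to signals above 4 in 2 arrays, 33 with a variance trend and robust moderation, 11 with centred arrays, 10 after loess, 0 with the 4 arrays alone and 0 without any 1 array. All 35 arrays gave 580, with the naive groups split or with array set as a term, 1251 without that term, and 34 arrays 1262. From 1262, a limit of 2-fold gave 529, all 35 arrays 580 and centring 6694, and leaving out an array 738 (naive replicate 4) to 1105. All 580 of the 35-array calls were among the 1262.

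Between 15 d and 3 d, 1 call became 0 with the replicate block, which is paired by number only, 30 at an adjusted p below 0.05, 3 with centred arrays, 755 on 34 arrays (chosen after seeing the data), and 0 to 10 without 1 array, the 10 without IONT 3 d replicate 2. At 7 d, 1462 became 5258 at an adjusted p below 0.05 and 528 to 1655 without 1 array, with 528 lacking naive replicate 2. The 2083 differences between the changes became 6726 at that threshold, 9065 with centred arrays and 1012 (naive replicate 4) to 2399 without 1 array. The cause of these shifts was not tested, beyond fewer arrays where some were left out. Of the alternatives for named genes and list medians, 2602 kept their side of the threshold or moved within the replicate spread, 214 passed it where the 8-array value had not, 28 no longer passed and 43 moved by more than that spread. In 13 a named gene that was not called changed sign. With 5 naive arrays and no array set term Myl1 had -0.17, Onecut1 -0.47, Rps16 -0.29, Ndufs7 -0.017, Pcp2 -0.14, Mbp -1.35, Rps15 -0.083 and the dimmer probe set of Trib3 -0.41. With 1 array left out, Ccl2 ranged between -0.34 and 1.96, Tnfrsf12a between -0.20 and 1.43, Ifitm1 between -2.51 and 0.25, Myl1 between -0.42 and 2.26 and Calr between -0.63 and 0.036, each end without 1 of the 15 d arrays. Of the list medians 13 changed sign with centred arrays and 3 after loess, those of rods (0.04), complement (0.02) and annexins (-0.05). The contrasts at 15 d rest on 2 arrays a group.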

Other observations

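Genes of further groups gave few calls at 15 d on the probe sets that stood for them, all higher than naive and made with the spread of 34 arrays. Of all genes 3.57% were called higher and 0.943% lower. Such small counts, here and in the groups that follow, are therefore not read as a result about a group. Of 24 cathepsin and lysosome genes, Ctsh, cathepsin H, had 9.04 and 8.93 after IONT and 8.11 and 8.15 in naive (0.86 ± 0.16), with Ctss as the other call, and the median change was 0.20. Of 30 chemokine and cytokine genes, Ccl9, a chemokine of myeloid cells, had 5.19 and 5.14 against 3.74 and 2.81 (1.89 ± 0.28), and Cxcl14, a chemokine of epithelia, 9.13 and 8.75 against 7.92 and 8.04 (0.96 ± 0.20), with a median of -0.06. Of 24 AP-1 and immediate early genes, Ier2, an immediate early nuclear protein, had 8.48 and 8.47 against 7.25 and 7.73 (0.98 ± 0.15), beside Jun. Fos, the AP-1 partner of Jun, had 6.99 and 7.04 against 7.06 and 7.18 and was not called. Ccl9, Ier2 and Jun kept their calls whichever of the 4 arrays was left out, while Ctsh was lost without naive replicate 4 or IONT 15 d replicate 1, and Cxcl14 without either naive array or IONT 15 d replicate 1. Of 29 cell cycle genes Ccnd2 (1.33) and Ccnd3 (0.68), D-type cyclins, were called and both were lost without naive replicate 4 or IONT 15 d replicate 1.

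In the interferon response 1 of 38 genes was called, Isg20, at a signal near the lowest. Mx2, an interferon-induced GTPase, had the largest change of that list, 2.75, and was not called (limma adjusted p = 0.0492 on 34 arrays). The other probe set of Mx2 showed -0.90. None of 19 class I and immunoproteasome genes was called, with a median of 0.10, where Psmb9 (1.2) and Psmb10 (1.14), catalytic subunits of the immunoproteasome, had changes of that size without a call. Of 31 genes of TNF receptors, caspases and the Bcl-2 family 1 was called, Bbc3, and the median was -0.02. Of 19 annexin and S100 genes S100a3 and S100a13 (1.03) were called, the second not without naive replicate 4. Of 24 stress response genes Cebpb (1.54) and Shmt2 (0.83) were called, and neither remained without naive replicate 4 or IONT 15 d replicate 1. Of 22 endothelial and mural genes Kcnj8, a potassium channel of pericytes, and Vwf, von Willebrand factor, were called, Kcnj8 at 3.31 and 2.85 against 2.23 and 2.24, near the lowest signal, and the call of Vwf was lost whichever of the 4 arrays was left out. Of 9 horizontal cell genes Lhx1 (0.99) was called, but not without naive replicate 5 or either 15 d array. None was called of 34 matrix and integrin genes, 11 of oligodendrocytes and optic nerve, 13 of T cells, granulocytes and blood, 14 of skeletal muscle, 28 of cytosolic ribosomal proteins (median 0.19, and 0.30 after loess, where 3 were called higher) and 41 of oxidative phosphorylation (median 0.02). Hbb, β-globin, had a change of -1.84 and was not called.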
